A study of Oryza sativa Japonica Group with 6 samples.

Results

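Triacylglycerol, the storage oil of seeds, is assembled from fatty acids that are made in plastids. SSI2, a stearoyl-acyl carrier protein desaturase, puts the first double bond into stearate and so provides oleate, and diacylglycerol acyltransferases of the DGAT1 type add the last fatty acid to diacylglycerol. In cereal grains most of this oil lies in the embryo and the aleurone, whereas the starchy endosperm stores mainly starch and protein. The members described here are the rice genes DGAT1-1 (LOC4338045), DGAT1-2 (LOC4341317) and SSI2 (LOC4327738), found by these names among the symbols and synonyms of the gene table, with leading Os ignored; the matching used no measured value, but the genes were proposed with earlier results of these data known. Probe sets that map to exactly 1 gene were found for 2 of the 3 genes, DGAT1-1 and SSI2, each with 1 probe set, out of 17905 genes with such a probe set. No probe set of the annotation pointed to DGAT1-2, and it is not analysed here.

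RNA from developing seeds of Oryza sativa Japonica Group was measured on 6 Affymetrix rice arrays to see which expression changes follow an added dose of fertilizer. In 1 group of 3 arrays the soil surface was sprayed at heading with ammonium chloride, 400 mg to each container, and the seeds are labelled as 15 days after flowering (additional NH4Cl). The other 3 arrays came from plants without this addition (control), for which the sources used here give no sampling day. Both groups were fertilized when planted and once more on day 37 after germination, and 6 plants gave the seeds. No cultivar or genetic change is named in the labels. The labels call the 3 arrays of a group biological replicates but do not say which plants each came from, and the material was pooled, so a p-value here reflects only how these samples vary, which may be technical.

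The deposited table held 57194 rice probe sets and 187 control probe sets, with values between 4.96 and 13.51 that were read as log2. Array medians lay between 5.71845 and 5.7186. The spread between arrays was very small: 97.4% of rice probe sets had an SD over the 6 arrays under 0.001. The sources used here do not say why the spread is so small. The differences therefore cannot be read as fold changes of RNA, and they are given in deposited log2 units and as multiples of each probe set's own within-group SD. The tissue label was compared with marker genes. Of 11 measured markers of starchy endosperm 10 lay above the brightest of the 64 reporter control probe sets (6.07), as did 11 of 11 markers of aleurone and embryo and 4 of 4 of green tissue. The exception was the glutelin GLUB-4 at 5.36. Of all rice probe sets, 33.1% lay above that reporter control. The oleosin OLE18, a coat protein of oil bodies, had no probe set that maps to it alone and is not analysed here.

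Both measured members gave clear signal in the seed on every array. DGAT1-1 stood at 8.65 on average, 2.58 above the brightest reporter control, and 95.8% of rice probe sets were dimmer. SSI2 stood at 10.51, 4.43 above that control, and 99.3% of rice probe sets were dimmer. Signals of different probe sets depend on their probes, so these values place each gene against background and do not rank the 2 genes by RNA. In bulk seed a smaller share of embryo or aleurone cells and less RNA per cell cannot be told apart.

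DGAT1-1, the enzyme of the last step of triacylglycerol synthesis, was measured with a single probe set. With additional NH4Cl its log2 values were 8.64779, 8.64783 and 8.64778 in replicates 1 to 3. In control they were 8.64794, 8.64792 and 8.64798. All 3 additional NH4Cl arrays lay below all 3 control arrays, and the gap between the groups (8.53e-05) was wider than the range within additional NH4Cl (5.56e-05) or within control (6.57e-05). Groups separated in this direction in 8.99% of all rice probe sets and in 13.4% of the 1000 probe sets nearest to DGAT1-1 in mean level.

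DGAT1-1 averaged 8.64795 ± 3.32e-05 in control and 8.6478 ± 2.87e-05 with additional NH4Cl (SD, n = 3 arrays each). The difference was -0.000147 (SE 2.53e-05, 95% interval from -0.000218 to -7.7e-05), which is -4.75 within-group SDs. It did not pass limma over all rice probe sets, with an unadjusted p of 0.00252 and a Benjamini-Hochberg adjusted p of 0.177. A smaller p was found for 1.41% of the 57194 probe sets. The exact permutation test over arrays gave p = 0.1 (two-sided), the smallest that 3 against 3 arrays allow. Of the 2 measured members 0 were called, beside 0.00699% of all rice probe sets, all of them lower with additional NH4Cl. At an unadjusted p under 0.05, 5.96% of rice probe sets were lower and 5.09% higher.

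SSI2, the enzyme that forms oleate in plastids, was likewise measured with a single probe set. With additional NH4Cl its log2 values were 10.50577, 10.50575 and 10.50582 in replicates 1 to 3. In control they were 10.50582, 10.5058 and 10.50583. The groups overlapped: additional NH4Cl replicates 1 and 2 lay below all control arrays and replicate 3 lay between control replicates 2 and 1. Means were 10.50578 ± 3.57e-05 and 10.50582 ± 1.41e-05 (SD, n = 3 arrays each). The difference of -3.52e-05 (SE 2.21e-05, 95% interval from -9.67e-05 to 2.63e-05; -1.3 within-group SDs) did not pass limma, with an adjusted p of 0.658, and the exact permutation test gave p = 0.2. The direction of SSI2 was not stable to scaling: it turned positive, at 8.73e-05, when each array was centred on its median (adjusted p of 0.0491 with limma, in a fit that called 51354 of the 57194 probe sets). That centring adds 0.000123 to every difference, so any negative difference smaller in size turns positive by construction.

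**Figure D1:**
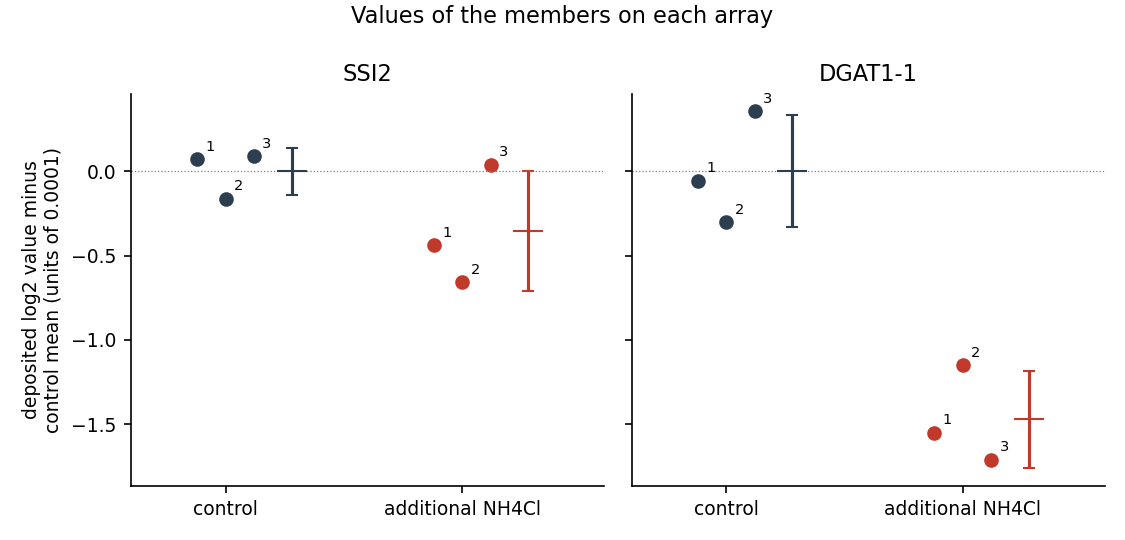
Deposited log2 value minus the gene's control mean, in units of 0.0001, for SSI2 and DGAT1-1 on each of the 6 arrays; numbers are replicates, and the bar beside each group is its mean ± SD. For DGAT1-1 the 3 additional NH4Cl arrays lie between -0.000171 and -0.000115 from the control mean and apart from all controls, and for SSI2 additional NH4Cl replicate 3 lies among the controls.

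The 2 genes ordered the treated arrays differently. Additional NH4Cl replicate 3 had the lowest DGAT1-1 value of all 6 arrays, -0.000171 from its control mean, and the highest SSI2 value of its group, 3.95e-06 from its control mean. In control, replicate 2 was the lowest and replicate 3 the highest array for both genes. The DGAT1-1 difference minus the SSI2 difference, which no shift common to an array can change, was -0.000112 (SE 3.86e-05; -2.37 SDs). On this measure too the 3 additional NH4Cl arrays lay below the 3 controls, with an exact p = 0.1, the smallest possible here. It was 0.000454, of the opposite sign, after quantile normalization.

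The spread of both members lay within that of probe sets of like signal. DGAT1-1 had an SD over the 6 arrays of 8.53e-05, beside a median of 7.78e-05 among the 1000 probe sets nearest in mean (8.44 to 8.86). SSI2 had an SD of 3.1e-05 beside a median of 8.5e-05 among its neighbours (9.35 to 11.65), and 31.4% of them varied less. Around DGAT1-1, 50.4% of neighbours were lower with additional NH4Cl and their median difference was -1.36e-07. A larger negative difference than that of DGAT1-1 was found in 17.9% of those neighbours, and a more negative t in 1.9%.

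Some ways of scaling the arrays changed the size of the member differences, and others hardly did. The array medians of the groups differed by -0.000123, about the size of the DGAT1-1 difference, although the median of the 57194 probe sets' own differences was 5.67e-09. Centring arrays on their medians left DGAT1-1 at -2.48e-05 (SE 4.86e-05), with an adjusted p of 0.608 in limma. The same 0.000123 is added to the genes below, and their smaller negative differences turn positive by construction. Subtracting the median deviation of the 1000 neighbours instead, an alternative chosen after seeing the data, left DGAT1-1 at -0.000146 and SSI2 at -3.87e-05. Subtracting each array's median deviation over all rice probe sets, likewise chosen after seeing the data, left DGAT1-1 at -0.000147 and SSI2 at -3.52e-05.

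The order of the probe sets within an array held still less change. DGAT1-1 was the 2392nd brightest rice probe set on 5 arrays and the 2393rd on additional NH4Cl replicate 1. SSI2 was 383rd on 5 arrays and 382nd on control replicate 3. Quantile normalization keeps only this order, so it left each gene with 1 array that differed from the other 5. Its differences, -0.000138 (SE 0.000138) for DGAT1-1 and -0.000592 (SE 0.000592) for SSI2, each rest on that single array.

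**Figure D2:**
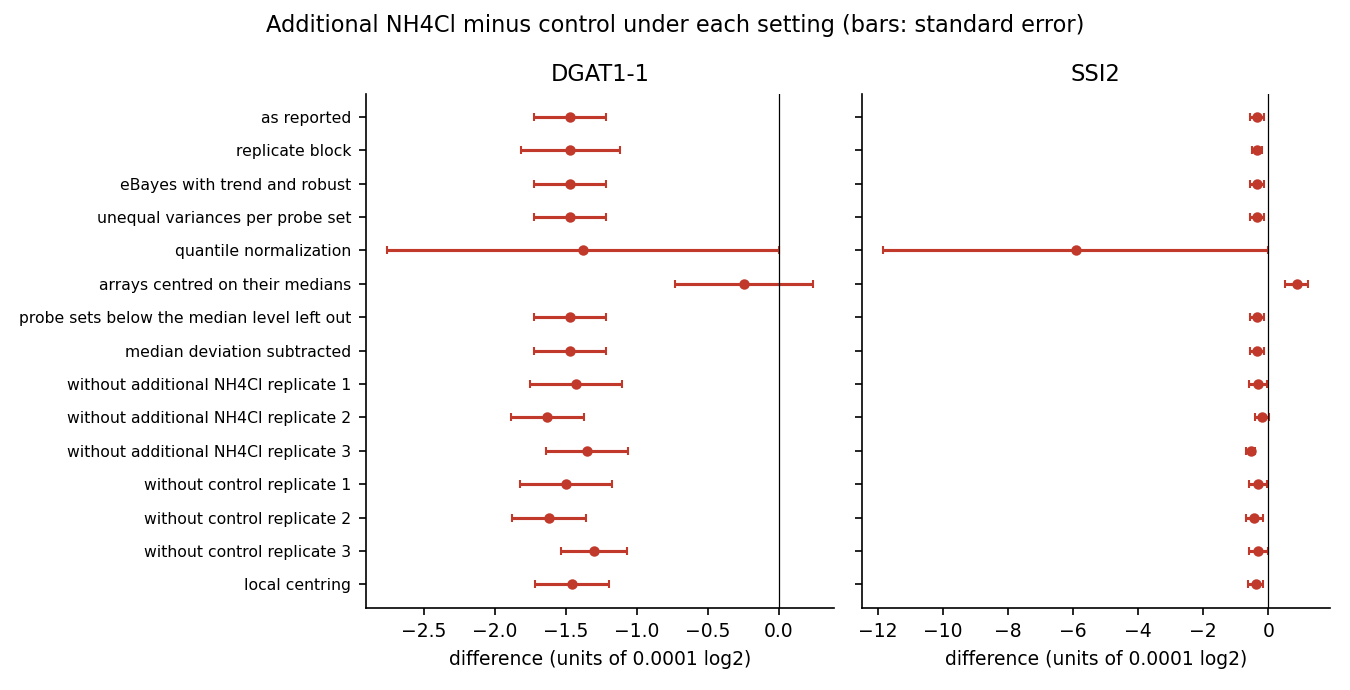
Difference between additional NH4Cl and control (points, in units of 0.0001 log2) with its standard error (bars) for DGAT1-1 and SSI2 under each setting; the axes of the 2 panels differ. DGAT1-1 is negative in all settings shown, of which only the rescalings could change its sign. It comes nearest to 0, at -2.48e-05, after median centring, where SSI2 turns positive at 8.73e-05.

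Other lipid genes were sought by patterns on gene names, and 34663 rice probe sets had no named gene. The lists given here therefore need not cover their pathways. For fatty acid synthesis the patterns gave, beside SSI2, the acetyl-CoA carboxylase ACC2, which makes malonyl-CoA, and 2 enoyl-acyl carrier protein reductases (ENR). The ENR complete each round of chain elongation, and all of these genes had a probe set. With SSI2 all 4 genes of this list had a lower mean with additional NH4Cl and 0 of 4 passed the test (adjusted p between 0.636 and 0.797 in limma). Their median t was -1.47, beside 0.0105 over all rice probe sets, of which 49.6% were lower. The direction turned for 2 of the 4 genes (SSI2 and the ENR of LOC4345286) after median centring and for 1 (the same ENR) after quantile normalization.

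ACC2 read 9.28831, 9.28869 and 9.28954 with additional NH4Cl and 9.28955, 9.28935 and 9.28904 in control, a difference of -0.000467 (-0.975 SDs). The ENR of LOC4346596 read 7.22301, 7.22368 and 7.22438 with additional NH4Cl and 7.22465, 7.22452 and 7.22407 in control, a difference of -0.000722 (-1.36 SDs). Both genes overlapped between groups in the same way as SSI2. In 3 of the 4 genes (SSI2, ACC2 and this ENR) additional NH4Cl replicates 1 and 2 lay below all controls and replicate 3 did not, an arrangement seen after the values were known and found in 6.83% of all rice probe sets and in 0 of the lipid genes of the other lists. The ENR of LOC4345286 had a difference of -0.000108 (-0.89 SDs), with additional NH4Cl replicate 1 alone below the controls. With 1 array left out ACC2 ran from -0.000812 to -0.0002, the ENR of LOC4346596 from -0.00107 to -0.000382 and that of LOC4345286 from -0.000184 to -4.26e-05.

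KCS20, a ketoacyl-CoA synthase that elongates fatty acids, was the only gene in the list of fatty acid desaturation and elongation, and it was measured. Its difference was -1.35e-05 (-1.61 SDs, adjusted p of 0.566 in limma), positive after median centring. Among oil bodies and regulators 3 of 4 genes were measured, all 3 with a lower mean, and 0 passed (adjusted p between 0.591 and 0.976 in limma). VP1, a B3 transcription factor of seed maturation, stood at -3.3e-05 (-1.51 SDs), which was positive after both scalings. PXG, a peroxygenase of the caleosin family, stood at -0.00366 (-1.08 SDs). It read 9.65062, 9.64686 and 9.64138 with additional NH4Cl and 9.64894, 9.64961 and 9.65128 in control, and replicate 3 of additional NH4Cl was the lowest array. Without that replicate the difference of PXG was -0.0012, and without replicate 1 of the same group it was -0.00583. LFL1, another B3 factor, had a difference of -1.27e-06 (-0.252 SDs), positive after median centring, and ran from -3.6e-06 to 2.03e-06 with 1 array left out, the highest without additional NH4Cl replicate 3.

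Genes of lipid breakdown had no common direction. Of 14 measured genes 5 were lower and 9 higher, 0 passed (adjusted p between 0.134 and 1 in limma), and the median t was 0.226. Of the 14, 7 lay above the brightest reporter control, beside 33.1% of all rice probe sets. MS, the malate synthase of the glyoxylate cycle by which seeds turn fatty acids into sugar, read 7.77204, 7.77207 and 7.77217 with additional NH4Cl and 7.77163, 7.77171 and 7.77156 in control. All 3 additional NH4Cl arrays of MS lay above all controls, as in 8.42% of rice probe sets. Its difference of 0.000457 (SE 5.66e-05; 6.59 SDs) had an unadjusted p of 0.000648 and an adjusted p of 0.134 in limma, and moved to 0.000579 with median centring and to 0.000141 with quantile normalization.

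Isocitrate lyase (ICL), the other enzyme particular to that cycle, stood at 0.00637 (0.805 SDs) with overlapping groups. Its values were 6.87935, 6.87358 and 6.86255 with additional NH4Cl and 6.86103, 6.86156 and 6.8738 in control, and with 1 array left out the difference ran from 0.00261 to 0.011. The phospholipase A2 PLA2-II stood at 1.85e-05 (1.41 SDs) below the brightest reporter control, at a level of 5.94, and turned negative after quantile normalization. On the lower side, the lipoxygenase LOX5, which oxidizes polyunsaturated fatty acids, stood at -1.02e-05 (-2.03 SDs, adjusted p of 0.461 in limma). Its groups did not overlap, as in 8.99% of all rice probe sets in that direction. PLD2, a phospholipase D, stood at -6.56e-05 (-1.34 SDs, and -2.86e-05 without additional NH4Cl replicate 1). The phospholipase A2 PLA2-III stood at -0.000175 (-0.735 SDs) and ran from -0.000322 to -4.11e-05 with 1 array left out. LOX5 and PLD2 were positive after median centring and PLA2-III after quantile normalization.

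**Figure D3:**
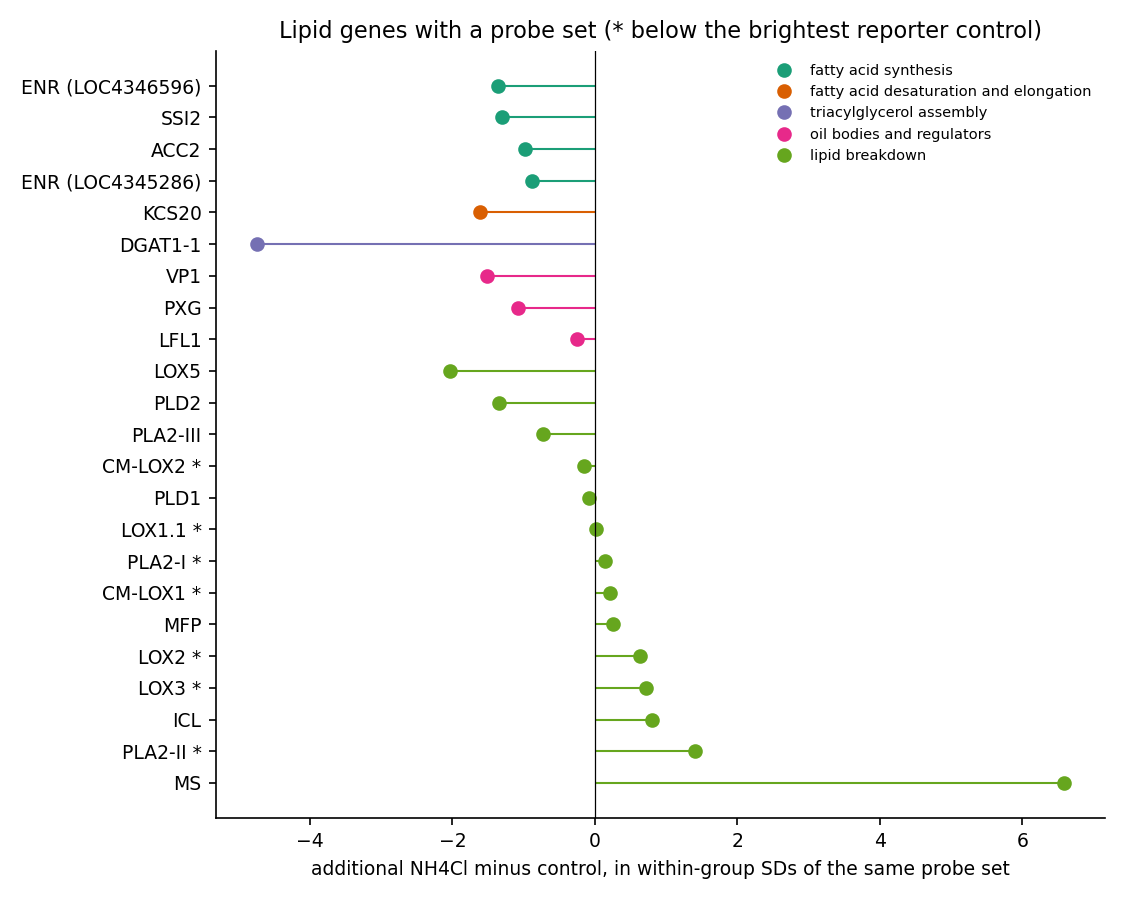
Additional NH4Cl minus control in each probe set's own within-group SDs for the 23 lipid genes with a probe set, coloured by list; an asterisk marks the 7 genes below the brightest reporter control. DGAT1-1 at -4.75 SDs and MS at 6.59 SDs lie farthest from 0, and 0 of the 23 genes passed the test over all rice probe sets.

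Markers of the tissues that make or lack seed oil were set beside these values. Of the 11 aleurone and embryo markers 5 were lower and 6 higher with additional NH4Cl. Their summed log2 level ranged from 112.1445 to 112.2511 with additional NH4Cl and from 112.1768 to 112.2232 in control, so the groups overlapped. Of the 11 endosperm markers 7 were lower and 4 higher, with sums between 131.7766 and 131.7848 with additional NH4Cl and between 131.8035 and 131.8136 in control. This summed difference of -0.0289 equals that of the soluble starch synthase SSI alone, -0.0289. All 4 green tissue markers were higher, with overlapping sums of 38.6775 to 38.6817 and 38.6753 to 38.6794. The part of tissue composition in the DGAT1-1 and SSI2 differences was not tested.

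Patterns most like those of the members were sought among 2492 probe sets that have 1 gene with an informative name and are at least as bright as the median probe set (5.718). For DGAT1-1 the 5 highest Pearson correlations over the 6 arrays ran from 0.977 to 0.9883. They belonged to DREB1E, a transcription factor of the dehydration-responsive family, ADCS, an aminodeoxychorismate synthase of folate synthesis, OsPP2C07, a protein phosphatase, CIPK2, a protein kinase that binds calcium sensors, and OsSUV3, an RNA helicase. The groups of all 5 were apart, as in 8.99% of rice probe sets, which a correlation this high with DGAT1-1 makes likely by selection. Within groups, on deviations from the group means, their correlations with DGAT1-1 were 0.892, 0.916, 0.914, 0.854 and 0.817. The selection was made on the same arrays and favours high values here too. CIPK2 had a difference of -0.00148 (-4.74 SDs), and DREB1E, ADCS, OsPP2C07 and OsSUV3 lay between -9.77e-06 and -4.45e-06. DREB1E (5.74) and OsPP2C07 (6.06) were dimmer than the brightest reporter control.

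For SSI2 the 5 highest correlations ran from 0.9364 to 0.9595. They belonged to LOL2, a zinc finger protein, OsPP2C75, a protein phosphatase, OsRFC3, a subunit of the replication clamp loader, NAS2, a nicotianamine synthase, and GAPC2, a glyceraldehyde-3-phosphate dehydrogenase. Within groups, on deviations from the group means, their correlations with SSI2 were 0.957, 0.985, 0.95, 0.904 and 0.901, which the selection on the same arrays likewise favours. Their differences lay between -4.27e-05 and -7.03e-07, with adjusted p between 0.41 and 0.701 in limma. Only OsPP2C75 had groups that did not overlap, lower with additional NH4Cl, as in 8.99% of all rice probe sets. NAS2 (5.73) and GAPC2 (5.72) were dimmer than the brightest reporter control. With 6 arrays and 2492 candidates these correlations are descriptions, and all points share the same arrays and the same scaling.

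**Figure D4:**
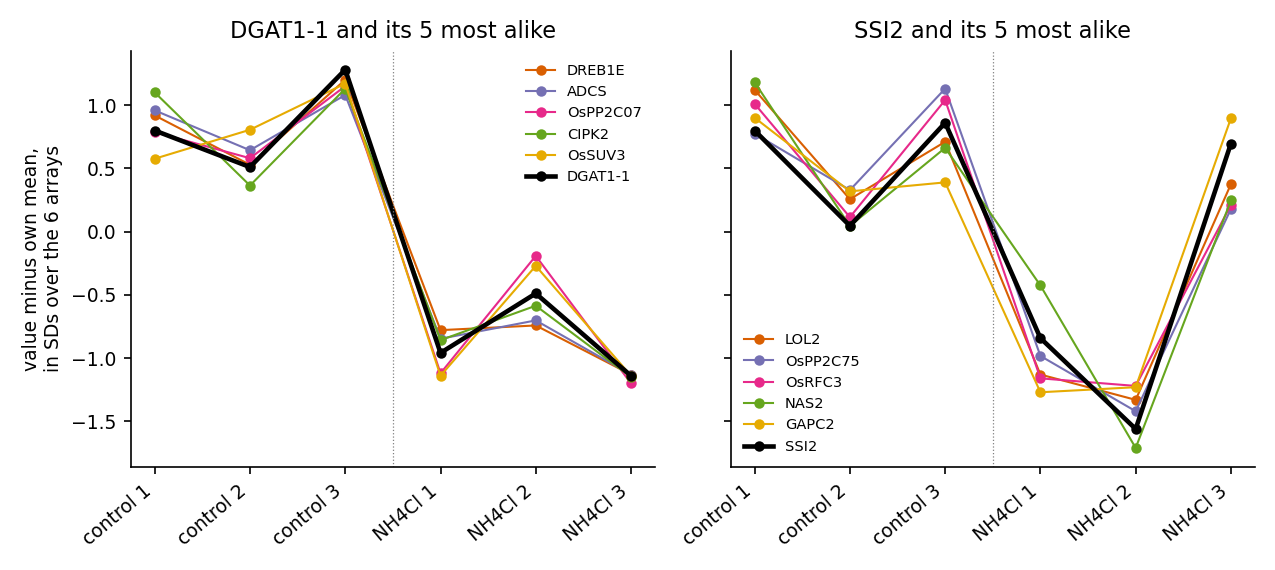
Value minus the gene's own mean, in SDs over the 6 arrays, for DGAT1-1 and SSI2 (black) and the 5 named probe sets most correlated with each; lines only join the points of a gene. The DGAT1-1 set is high on all 3 controls and low on all 3 additional NH4Cl arrays, and in the SSI2 set additional NH4Cl replicate 3 stands above replicates 1 and 2.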

How the data were processed

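Per the labels' protocols, RNA of pooled material was hybridized as biotinylated cRNA. The authors deposited 1 value per probe set and array, read here as log2 from its range; the sources used here do not state summarization, normalization or log base. Gene names came from the array's annotation joined to a RefSeq gene table (22436 of 57194 rice probe sets have 1 gene). The contrast was additional NH4Cl minus control in limma 3.58.1 under R 4.3.3 (lmFit, then eBayes without a block, two-sided, Benjamini-Hochberg over all rice probe sets at 0.05, no filter, 187 control probe sets excluded). The code was run on simulated data with shifts larger than any difference given here in SDs. That run therefore does not show how the fit performs on differences of the size seen here. Standard errors and 95% intervals are unmoderated. The number of arrays limits the precision.

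The members, lists and markers were chosen with earlier results of these data known. Name patterns for lipid genes matched 40 genes, of which 14 with another function were left out. Of the remaining 26 genes 23 had a probe set, the brightest standing for a gene. Named were all members, all genes of lists up to 6, otherwise the 3 largest t in each direction, the 5 most correlated probe sets per member, and some markers. No sequences or coordinates were used here. Deviations of arrays with the same replicate number correlated at -0.062, 0.045 and -0.077. Those with different numbers correlated at between -0.05 and 0.103. With 3 arrays in each group this cannot show whether the numbers pair the arrays. Alternatives were a replicate block, trend and robust eBayes, unequal variances, quantile normalization, median centring, a filter on level, the mean of a gene's probe sets, each array left out and, chosen after seeing the data, local centring and subtraction of each array's median deviation.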

Additional observations from a re-analysis of the deposited data

How the results depend on the processing

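DGAT1-1 was negative in every alternative run on it and short of the threshold in all that gave a test (local centring gave none). Only the rescalings of the arrays could have changed its sign. The replicate block, trend and robust eBayes, unequal variances and the level filter keep the estimate by construction. Groups that do not overlap also keep their order with 1 array left out. Median centring gave -2.48e-05 (SE 4.86e-05) and quantile normalization -0.000138 (SE 0.000138). With 1 array left out the DGAT1-1 difference ran from -0.000163 to -0.00013 (adjusted p between 0.281 and 0.469 in limma). SSI2 ran from -5.48e-05 to -1.99e-05 with 1 array left out, and reversed to 8.73e-05 after median centring, which by construction adds 0.000123 to every difference. Whether the replicate numbers pair the arrays cannot be shown with 3 arrays in each group. The replicate block left DGAT1-1 at -0.000147 (adjusted p of 0.495 in limma) and SSI2 at -3.52e-05 (adjusted p of 0.626 in limma). With the block, fatty acid synthesis, oil bodies and regulators, and lipid breakdown had 4, 3 and 5 genes lower.

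The number of rice probe sets called was 4 as reported, 2 with the replicate block, 2 with trend and robust, 0 with unequal variances, 32 without dim probe sets, 51354 after median centring and 4079 after quantile normalization, and 0 to 1 with 1 array left out. The count of lower genes in fatty acid synthesis moved from 4 to 2 after median centring and was 4 with any array left out. In oil bodies and regulators it moved from 3 to 1 after median centring and ran from 2 to 3 with an array left out. In lipid breakdown it moved from 5 to 8 after quantile normalization and to 1 after median centring, and ran from 5 to 6 with an array left out. Why quantile normalization moved these counts was not tested. DGAT1-2 gave no value under any setting.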
